A study of Mus musculus with 9 samples.

Results

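The B cell receptor proximal signalling genes are Cd79a, Cd79b, Cd81, Blk, Lyn, Syk, Btk, Blnk and Plcg2, which encode the signalling chains of the receptor, a coreceptor protein and the first kinases, adaptor and phospholipase that act after it. They were taken by gene symbol from the deposited expression table and make up 9 of its 17596 genes. Levels are in FPKM, the fragments of a transcript scaled by its length and by the mapped fragments of the library. Tests were run on the 10823 genes that averaged 1 FPKM or more over the 9 libraries, and all 9 of these genes were among them. RNA was sequenced from primary spleen B cells of mice, either untreated on day 0 or after 3 days of culture with LPS at 10 μg/ml plus IL-4 at 50 ng/ml, a mixture used to induce class switching in vitro. On each day, Mb1Cre cells served as the control for Mct1f/fMb1Cre cells, in which floxed Mct1 (Slc16a1, a carrier of lactate and pyruvate) is deleted by Cre. The groups held 2 libraries of Mb1Cre and 2 of Mct1f/fMb1Cre cells on day 0, and 2 of Mb1Cre and 3 of Mct1f/fMb1Cre cells on day 3. The age of the mice was not given in the labels.

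Both genotypes carry the Mb1Cre allele, in which Cre is expressed from the mb-1 locus. The mb-1 gene is Cd79a itself, so all 9 libraries came from mice with a Cre insertion at the locus of one of the genes described, and no library without Cre was analysed here. The labels did not say how many copies of the allele the mice had, or whether libraries of 1 group came from separate mice or cultures, and p-values therefore measure the spread between these libraries, which may be technical.

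In a resting B cell, antigen bound by surface immunoglobulin leads Src family kinases to phosphorylate the tails of Cd79a and Cd79b. Syk docks there and phosphorylates the adaptor Blnk, which brings Btk and Plcg2 together, and Plcg2 then makes the messengers that open the calcium and diacylglycerol branches. LPS acts through Toll-like receptor 4 and IL-4 through its own receptor, and neither is a ligand of the B cell receptor.

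The targeted gene followed the labels on day 3. Slc16a1 was at 22.6 and 23.0 FPKM in Mb1Cre cells and at 10.8, 9.81 and 9.50 FPKM in Mct1f/fMb1Cre cells (log2 difference -1.11, limma adjusted p = 9.07e-06), and on day 0 it was at 3.71 to 4.33 FPKM in the 4 libraries (log2 difference -0.05, adjusted p = 0.844). Markers of other cell types moved with the day. Over 8 myeloid markers the summed level was 1083 to 1859 FPKM on day 0 and 23.3 to 36.6 FPKM on day 3, over 5 erythroid markers it was 96.0 to 173 and 4.34 to 7.95 FPKM, over 5 T cell markers 26.7 to 30.1 and 0.77 to 1.37 FPKM, over 3 NK cell markers 31.2 to 40.8 and 5.77 to 7.37 FPKM, and over 4 platelet markers 4.51 to 10.6 and 2.36 to 4.0 FPKM. Hbb-bs was listed at 0 in every day 3 library, and the myeloid markers were highest in Mct1f/fMb1Cre library 1 of day 0. Over 5 B cell markers the sum was 1606 to 1714 FPKM on day 0 and 1054 to 1120 FPKM on day 3, so the labelled cell type had its markers on both days, and over 5 plasma cell markers it was 185 to 282 and 379 to 473 FPKM. Lyn, Syk, Btk, Plcg2 and Cd81 are also known in myeloid cells, and the part of these cells in the day 0 levels was not tested. In such bulk RNA, fewer cells of a type and less RNA per cell cannot be told apart.

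**Figure D1:**
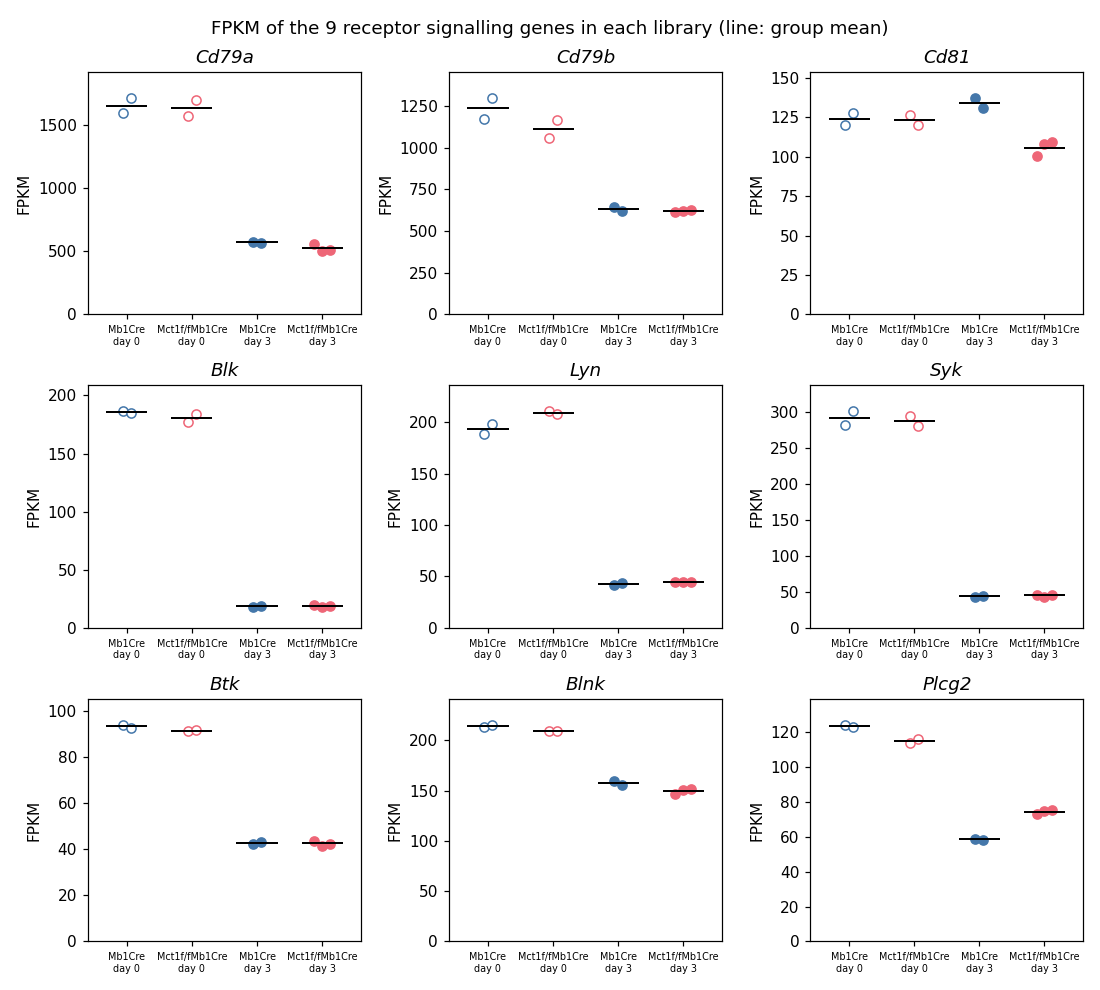
FPKM of each of the 9 genes in each library, with open points for day 0, filled points for day 3, blue for Mb1Cre, red for Mct1f/fMb1Cre and a line at the group mean; every vertical axis starts at 0. Day 3 points lie below all day 0 points for 8 genes, and Cd81 is the exception, with 131 to 137 FPKM in Mb1Cre and 100.3 to 109.5 FPKM in Mct1f/fMb1Cre cells on day 3. The share of all genes tested that separate in this way was not counted. By the adjusted p alone, 47.5% of them were lower on day 3 in Mb1Cre and 49.1% in Mct1f/fMb1Cre cells.

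To ask how activation changed these genes, day 3 was compared with day 0 within each genotype. No library came from cells cultured without LPS and IL-4. The stimulus and the 3 days of culture therefore cannot be told apart, and activation here stands for both. All differences are given on the scale of log2(FPKM + 1), and a gene was called where the adjusted p was under 0.05 and the difference was above 0.5 in size. In Mb1Cre cells, 7 of the 9 genes were called lower and 0 higher, while 33% of all genes tested were called lower and 24.8% higher. In Mct1f/fMb1Cre cells 7 were likewise called lower and 0 higher, against 33.2% and 23.4% of all genes tested. The median difference of the 9 genes was -1.11 in Mb1Cre and -1.09 in Mct1f/fMb1Cre cells, and that of all genes tested was -0.12 and -0.14. With the adjusted p alone, 8 and 9 of the 9 genes passed as lower, against 47.5% and 49.1% of all genes. The 9 genes together held 0.80% to 0.871% of the summed FPKM of a library on day 0 and 0.288% to 0.307% on day 3.

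The signalling chains of the receptor were the most abundant of the 9 transcripts on both days, and both fell. Cd79a (chromosome 7, GRCm38 chr7:24897381-24902197) encodes the chain also called Ig-alpha. It was at 1591 and 1714 FPKM in the Mb1Cre and 1573 and 1697 FPKM in the Mct1f/fMb1Cre libraries of day 0, and at 575 and 567 FPKM in the Mb1Cre and 557, 502 and 511 FPKM in the Mct1f/fMb1Cre libraries of day 3. The days did not overlap, and day 3 held 34.6% of the day 0 mean in Mb1Cre (difference -1.53, SE 0.063, adjusted p = 1.32e-09) and 32.0% in Mct1f/fMb1Cre cells (-1.64, SE 0.058, adjusted p = 3.36e-10).

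Cd79b (chr11:106311341-106314762), the partner chain Ig-beta, fell less. It was at 1172 and 1299 FPKM in the Mb1Cre and 1059 and 1163 FPKM in the Mct1f/fMb1Cre libraries of day 0, and at 642 and 619 FPKM in the Mb1Cre and 613, 621 and 624 FPKM in the Mct1f/fMb1Cre libraries of day 3. All 5 activated libraries lay below all 4 naive ones, at 51.0% of day 0 in Mb1Cre (-0.97, SE 0.061, adjusted p = 4.59e-08) and 55.8% in Mct1f/fMb1Cre cells (-0.84, SE 0.056, adjusted p = 6.55e-08). The order of the chains differed between the days: within each library the ratio of Cd79b to Cd79a was 0.673 to 0.758 on day 0 and 1.09 to 1.24 on day 3. Ratios are given as descriptions, since the pairs were picked after the values were seen.

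The kinases that act on and at the receptor showed the largest decreases among the 9 genes. Blk (chr14:63372836-63417037), a Src family kinase named for B lymphoid cells, was at 186 and 185 FPKM in the Mb1Cre and 177 and 184 FPKM in the Mct1f/fMb1Cre libraries of day 0. On day 3 it was at 18.1 and 19.3 FPKM in Mb1Cre and at 19.4, 18.1 and 18.7 FPKM in Mct1f/fMb1Cre libraries. Activated libraries therefore held 10.1% and 10.3% of the naive level (-3.24, SE 0.049, adjusted p = 2.48e-12, and -3.21, SE 0.045, adjusted p = 1.11e-12), with no overlap between the days. Only 1.46% of all genes tested had a lower difference than Blk in Mb1Cre cells.

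Lyn (chr4:3678115-3813122), the Src family kinase that phosphorylates the chains and also serves inhibitory receptors, was at 188 and 198 FPKM in the Mb1Cre and 210.4 and 208 FPKM in the Mct1f/fMb1Cre libraries of day 0. On day 3 its levels were 41.4 and 43.6 FPKM in Mb1Cre and 44.7, 44.7 and 44.8 FPKM in Mct1f/fMb1Cre libraries. It fell to 22.0% and 21.4% of day 0 (-2.16, SE 0.043, adjusted p = 8.24e-12, and -2.20, SE 0.040, adjusted p = 3.56e-12). Blk and Lyn were at similar levels in naive cells, with a ratio of Blk to Lyn of 0.843 to 0.991, and at 0.404 to 0.442 on day 3.

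Syk (chr13:52583173-52648792), the kinase that binds the phosphorylated chains, had the second largest decrease. It was at 282 and 301 FPKM in the Mb1Cre and 294 and 281 FPKM in the Mct1f/fMb1Cre libraries of day 0, and at 43.2 and 44.4 FPKM in the Mb1Cre and 46.1, 43.5 and 46.4 FPKM in the Mct1f/fMb1Cre libraries of day 3. The days did not overlap, and the activated level was 15.0% of day 0 in Mb1Cre (-2.71, SE 0.050, adjusted p = 4.87e-12) and 15.8% in Mct1f/fMb1Cre cells (-2.64, SE 0.046, adjusted p = 2.73e-12). The ratio of Syk to Cd79a was 0.166 to 0.187 on day 0 and 0.0751 to 0.0908 on day 3.

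The genes that act after Syk fell less. Btk (chrX:134542336-134583570), the Tec family kinase that phosphorylates Plcg2 and whose loss causes X-linked agammaglobulinaemia in people, was at 93.9 and 92.5 FPKM in the Mb1Cre and 91.2 and 91.6 FPKM in the Mct1f/fMb1Cre libraries of day 0. On day 3 it was at 42.2 and 43.2 FPKM in Mb1Cre and at 43.7, 41.5 and 42.3 FPKM in Mct1f/fMb1Cre libraries, which was 45.8% and 46.5% of day 0 (-1.11, SE 0.042, adjusted p = 6.42e-10, and -1.09, SE 0.038, adjusted p = 3.34e-10). Btk was at 0.308 to 0.333 of the Syk level on day 0 and at 0.911 to 0.977 of it on day 3. Btk lies on the X chromosome and the libraries differed in Y-linked transcripts: Ddx3y was at 0.02 to 0.24 FPKM in 3 libraries of day 0, at 31.1 FPKM in Mct1f/fMb1Cre library 1 of day 0 and at 14.7 to 16.9 FPKM in the 5 libraries of day 3. The day 0 levels of Btk in that library and in the other Mct1f/fMb1Cre library differed by under 1 FPKM, and without that library the difference between the days was -1.09. In Mb1Cre cells the day and these Y-linked transcripts changed together and cannot be told apart.

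Blnk (chr19:40928927-40994535), the adaptor, was at 213 and 215 FPKM in the Mb1Cre and 209 and 209.7 FPKM in the Mct1f/fMb1Cre libraries of day 0, and at 159 and 155 FPKM in the Mb1Cre and 146, 151 and 152 FPKM in the Mct1f/fMb1Cre libraries of day 3. It was lower in every activated library, at 73.3% and 71.5% of day 0, and passed the adjusted p (-0.45, SE 0.039, adjusted p = 8.61e-07, and -0.48, SE 0.036, adjusted p = 1.82e-07) but not the limit on size. Blnk was thus below Syk on day 0, at 0.712 to 0.756 of its level, and above it on day 3, at 3.18 to 3.69 times its level.

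Plcg2 (chr8:117498291-117635142), the phospholipase, was at 124 and 123 FPKM in the Mb1Cre and 114 and 116 FPKM in the Mct1f/fMb1Cre libraries of day 0. On day 3 it was at 58.8 and 58.1 FPKM in Mb1Cre and at 73.0, 74.6 and 75.4 FPKM in Mct1f/fMb1Cre libraries. It fell in both genotypes without overlap between the days, to 47.4% of day 0 in Mb1Cre (-1.06, SE 0.039, adjusted p = 5.16e-10) and to 64.8% in Mct1f/fMb1Cre cells (-0.62, SE 0.036, adjusted p = 1.95e-08). With median-of-ratios scaling the second difference was -0.40, below the limit on size.

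Cd81 (chr7:143052739-143067934), a tetraspanin of the B cell surface, was the one gene of the 9 that did not pass the adjusted p in both genotypes. It was at 120.2 and 128 FPKM in the Mb1Cre and 127 and 120.2 FPKM in the Mct1f/fMb1Cre libraries of day 0. On day 3 it was at 137 and 131 FPKM in Mb1Cre and at 100.3, 108 and 109.5 FPKM in Mct1f/fMb1Cre libraries. In Mb1Cre cells the day 3 values were above those of day 0 but the difference of 0.11 (SE 0.056, adjusted p = 0.0816) did not pass, and its sign depended on the scaling of the libraries, at -0.09 with equal totals, -0.12 with quantile normalization and 0.32 with median-of-ratios scaling. In Mct1f/fMb1Cre cells all activated libraries were lower than all naive ones, with a difference of -0.22 (SE 0.051, adjusted p = 0.0018) that was under the limit on size and came to -0.0017 (adjusted p = 0.978) with median-of-ratios scaling.

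**Figure D2:**
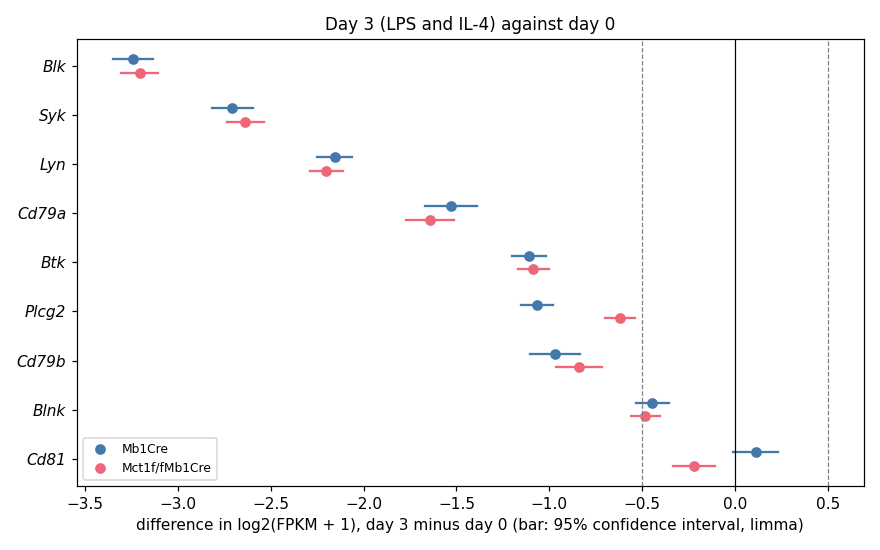
Difference in log2(FPKM + 1) between day 3 and day 0 for each gene, blue for Mb1Cre and red for Mct1f/fMb1Cre cells, with 95% confidence intervals from limma and dashed lines at the limit of 0.5 in size. The differences run from -3.24 for Blk to 0.11 for Cd81 in Mb1Cre cells, and the intervals of the genotypes lie apart for Plcg2 and Cd81.

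The order of the 9 levels, which FPKM allow to be compared per length, was therefore not the same on the days. In naive Mb1Cre cells it was Cd79a, Cd79b, Syk, Blnk, Lyn, Blk, Cd81, Plcg2 and Btk, from 1653 ± 87.2 (SD, n = 2) to 93.2 ± 1.00 FPKM (SD, n = 2), and Cd81 and Plcg2 overlapped between libraries. In activated Mb1Cre cells it was Cd79b, Cd79a, Blnk, Cd81, Plcg2, Syk, Btk, Lyn and Blk, from 630.3 ± 16.2 (SD, n = 2) to 18.7 ± 0.81 FPKM (SD, n = 2), and Syk, Btk and Lyn overlapped with their neighbours. Blk stood above 97.0% of all genes tested in naive Mb1Cre cells and above 61.2% of them in activated ones, and Cd79b above 99.5% and 98.8%. The Mct1f/fMb1Cre cells had the same order on day 0, with Blnk and Lyn overlapping, and on day 3 Lyn stood before Btk in it.

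**Figure D3:**
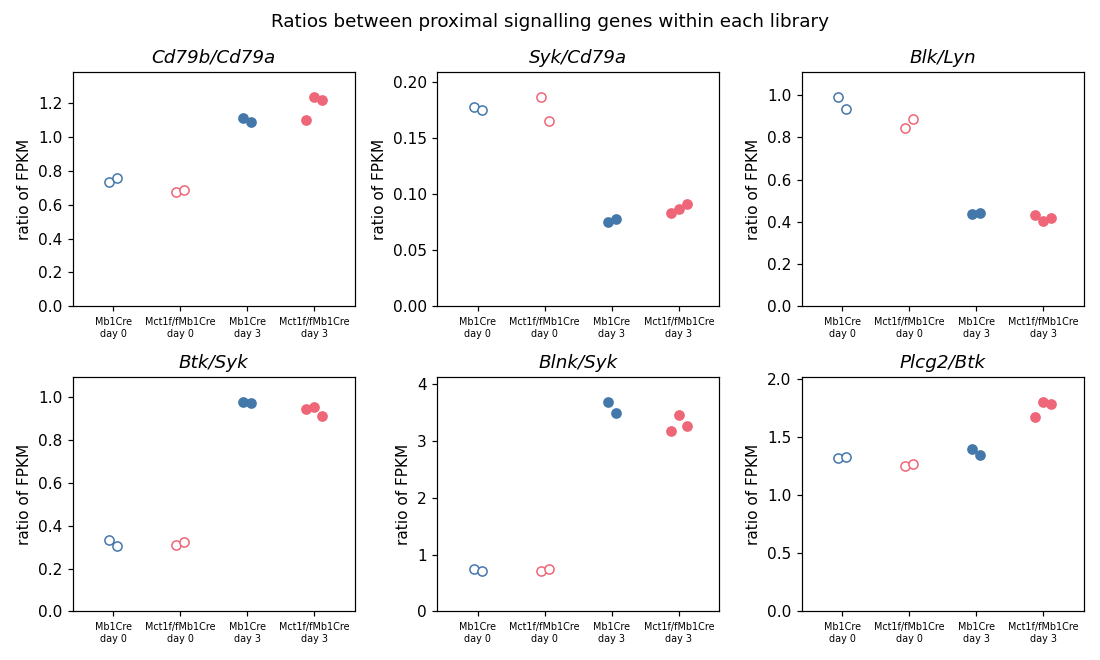
Ratio of the FPKM of 2 genes within each library, with open points for day 0, filled points for day 3, blue for Mb1Cre and red for Mct1f/fMb1Cre; every vertical axis starts at 0. The ratio of Cd79b to Cd79a is below 1 in the 4 libraries of day 0 and above 1 in the 5 of day 3, and that of Plcg2 to Btk is 1.34 to 1.39 in activated Mb1Cre and 1.67 to 1.80 in activated Mct1f/fMb1Cre libraries.

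To ask whether the loss of Mct1 changed these genes in activated cells, the genotypes were compared on day 3. Plcg2 was higher and Cd81 lower in Mct1f/fMb1Cre cells, and the other 7 genes did not pass. Both differences were under the limit on size, so that 0 of the 9 genes were called, against 0.887% of all genes tested called higher and 1.53% called lower. With the adjusted p alone, 1 of the 9 was higher and 1 lower, against 6.03% and 9.21% of all genes tested.

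Plcg2 was at 73.0 to 75.4 FPKM in the 3 Mct1f/fMb1Cre libraries and at 58.1 and 58.8 FPKM in the 2 Mb1Cre libraries, with no overlap. The mean was 127% of that of Mb1Cre cells (difference 0.34, SE 0.036, 95% confidence interval 0.26 to 0.42, adjusted p = 0.000167), and the difference was above that of 97.4% of all genes tested. It kept its sign and an adjusted p of at most 0.00431 in 17 of 17 alternative settings, those without 1 library included. Plcg2 is also known in myeloid cells, whose markers Lyz2 and Adgre1 were higher in the same libraries, Lyz2 at 16.8, 17.6 and 20.4 against 11.5 and 10.0 FPKM (0.71, adjusted p = 0.0015) and Adgre1 at 1.5, 1.37 and 1.39 against 0.44 and 0.58 FPKM (0.68, adjusted p = 0.000425). S100a8 and S100a9, also on the list, went the other way, with overlap between the genotypes. Their means were 0.54 against 0.875 FPKM and 0.64 against 1.595 FPKM. The 8 myeloid markers summed to 32.3 to 36.6 against 23.3 to 26.1 FPKM, and none of them was listed at 0 throughout a group. The part of the myeloid markers in the Plcg2 level was not tested.

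Cd81 was at 100.3 to 109.5 FPKM in the Mct1f/fMb1Cre and at 131 and 137 FPKM in the Mb1Cre libraries, again with no overlap. The mean was 79.0% of that of Mb1Cre cells (difference -0.34, SE 0.051, 95% confidence interval -0.45 to -0.23, adjusted p = 0.0015), and only 4.22% of all genes tested had a lower difference. The adjusted p was under 0.05 in 17 of 17 alternative settings, with differences of -0.37 to -0.30. The summed level of plasma cell markers was lower in the same libraries, but the single markers went both ways. The 5 markers summed to 379 to 408 FPKM in Mct1f/fMb1Cre and 457 to 473 FPKM in Mb1Cre cells. Irf4 was at 55.9, 55.2 and 57.5 against 80.3 and 77.8 FPKM (-0.49, adjusted p = 5.54e-05), and Jchain at 98.1, 85.6 and 78.6 against 126 and 116 FPKM (-0.47, adjusted p = 0.0377), both named after their values were seen. Xbp1, which held most of the sum, was at 241, 236 and 230 against 256 and 252 FPKM. Prdm1 and Sdc1 went the other way. Prdm1 was at 9.34, 10.01 and 9.85 against 8.41 and 8.39 FPKM, and Sdc1 at 3.21, 2.65 and 2.67 against 2.54 and 2.29 FPKM. The part of plasma cells in the Cd81 level was not tested.

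The promoters of Plcg2 and Cd81 are shown because the transcript levels of these genes differed between the genotypes on day 3. The sequences are those of the reference genome and were not read from the libraries. Each run holds the 250 bases before the start of the gene in RefSeq (GRCm38.p6, plus strand, 5′ to 3′), for Plcg2 chr8:117498025-117498274 and for Cd81 chr7:143052500-143052749. Capitals mark the letters GGGCGG, known as the GC box, and CACGTG, an E-box, searched on both strands, and no match overlapped another.
Plcg2: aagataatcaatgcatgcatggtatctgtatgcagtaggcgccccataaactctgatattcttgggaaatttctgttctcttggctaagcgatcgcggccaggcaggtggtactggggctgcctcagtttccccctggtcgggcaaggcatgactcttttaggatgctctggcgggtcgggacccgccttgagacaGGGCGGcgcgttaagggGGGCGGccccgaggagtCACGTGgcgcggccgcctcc
Cd81: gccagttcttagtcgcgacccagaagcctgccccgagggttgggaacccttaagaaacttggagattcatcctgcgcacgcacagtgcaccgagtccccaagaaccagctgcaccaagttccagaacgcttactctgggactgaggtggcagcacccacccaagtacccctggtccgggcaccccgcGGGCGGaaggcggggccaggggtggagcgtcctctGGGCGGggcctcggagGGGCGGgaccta
The Plcg2 run held 2 GC boxes and 1 E-box and the Cd81 run 3 GC boxes, and 59.6% and 65.6% of their bases were G or C. Of 32851 promoters in the RefSeq table, 32.7% held a GC box and 6.02% the E-box in these 250 bases. The table had entries for 6 of the 9 genes and none was found for Cd79b, Blk and Lyn. Among the others, the Ets letters CAGGAAGT, held by 2.69% of all promoters, were found for Cd79a and Blnk, and the octamer ATGCAAAT, held by 1.60%, was found on the reverse strand for Blnk. TATAAA, held by 12.4%, was found for none of the 6. The motifs were picked with the sequences known, and a match describes the letters only.

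The other 7 genes did not differ between the genotypes on day 3 beyond the threshold. For Cd79a the 3 Mct1f/fMb1Cre libraries were below both Mb1Cre libraries, at 91.6% of their mean, with a difference of -0.13 (95% confidence interval -0.26 to 0.00043, adjusted p = 0.174). Blnk was also lower in every Mct1f/fMb1Cre library (-0.07, interval -0.15 to 0.01, adjusted p = 0.232) and Lyn higher in every one (0.07, interval -0.02 to 0.16, adjusted p = 0.266). For Cd79b, Blk, Syk and Btk the genotypes overlapped. Their intervals were -0.15 to 0.10 for Cd79b, -0.10 to 0.10 for Blk, -0.05 to 0.15 for Syk and -0.09 to 0.08 for Btk, so that a larger difference than these lay outside what the libraries allowed at 95% confidence.

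**Figure D4:**
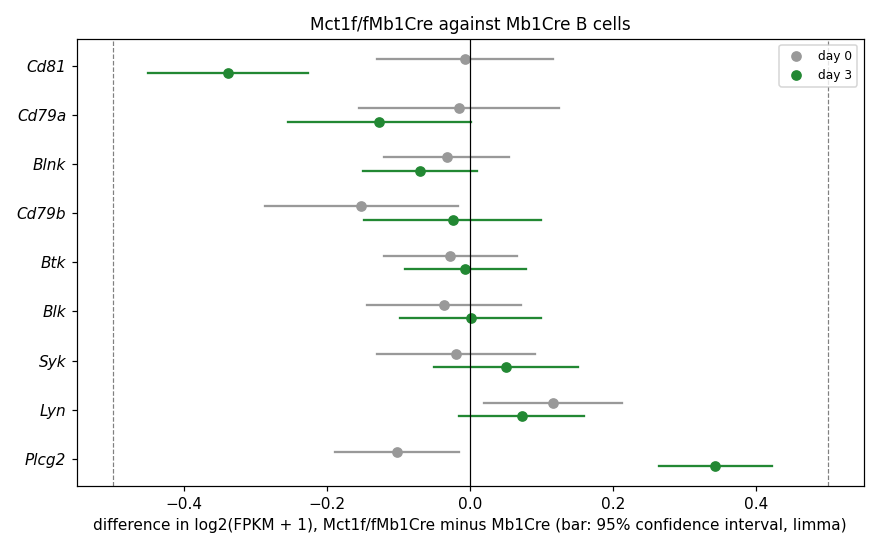
Difference in log2(FPKM + 1) between Mct1f/fMb1Cre and Mb1Cre cells for each gene, grey for day 0 and green for day 3, with 95% confidence intervals from limma and dashed lines at the limit of 0.5 in size. On day 3 Plcg2 at 0.34 and Cd81 at -0.34 stand apart from the other 7 genes, which lie between -0.13 and 0.07.

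On day 0, 0 of the 9 genes differed between the genotypes with or without the limit on size, and 0.277% and 0.416% of all genes tested did. The largest differences among the 9, none of which passed, were those of Cd79b (1059 and 1163 against 1172 and 1299 FPKM, -0.15, adjusted p = 0.377), Lyn (208 and 210.4 against 188 and 198 FPKM, 0.12, adjusted p = 0.347) and Plcg2 (114 and 116 against 123 and 124 FPKM, -0.10, adjusted p = 0.351). Cd81 had a difference of -0.01 on day 0 (95% confidence interval -0.13 to 0.12, adjusted p = 0.976).

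The change of the genotype difference from day 0 to day 3 was tested as an interaction. The groups of day 0 were not balanced in the Y-linked transcripts given above, and the part of this in the interactions was not tested. It passed the adjusted p for Plcg2 (0.45, SE 0.053, 95% confidence interval 0.33 to 0.56, adjusted p = 0.00115) and Cd81 (-0.33, SE 0.075, interval -0.50 to -0.16, adjusted p = 0.0226), which were 1 of 9 higher and 1 of 9 lower against 3.82% and 5.61% of all genes tested. With the limit on size it was 0 of the 9, against 1.02% higher and 2.22% lower. For Plcg2 the adjusted p was under 0.05 in 20 of 20 alternative settings. For Cd81 it was under 0.05 in 14 of 20, and it was 0.0622 without Mb1Cre library 1 of day 0, 0.0711 without Mct1f/fMb1Cre library 1 of day 0, and 0.0969 without Mb1Cre library 1 of day 3. The other 7 genes had interactions of -0.11 to 0.13, with adjusted p of 0.368 to 0.853.

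The wider pathway was read from lists of 84 further genes, of which 78 had a row and 73 were tested. In Mb1Cre cells 2 of the 73 were called higher and 47 lower on day 3, and in Mct1f/fMb1Cre cells 1 was higher and 50 lower. Between the genotypes on day 3, 2 were called higher and 2 lower, and with the adjusted p alone 22 were higher and 6 lower, and the shares of all genes tested are those given above. None of the 6 immunoglobulin constant region genes had a row, so surface immunoglobulin itself was not analysed here.

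Other surface proteins that act with the receptor had lower transcript levels as well. Cr2, which encodes a complement receptor, was at 93.9 to 122 FPKM on day 0 and 1.49 to 2.29 FPKM on day 3 (-5.41 in Mb1Cre cells, adjusted p = 5.8e-12), and Ptprc, which encodes the phosphatase CD45, was at 289 to 325 and 80.4 to 95.2 FPKM (-1.86, adjusted p = 1.55e-10). Of 12 tested genes of the same kinase, phospholipase and adaptor families, 10 were called lower in Mb1Cre and 11 in Mct1f/fMb1Cre cells. The shares of all genes tested were 33% and 33.2%. Among them the Src family kinase gene Fgr (-4.12, adjusted p = 3.16e-11), which is known for its role in myeloid cells, fell in Mb1Cre cells, and the summed myeloid markers given above were lower on the same day.

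Of the branches after Plcg2, the calcium branch had 6 of 12 genes called lower and 1 higher on day 3 in each genotype, against the 33% and 33.2% of all genes tested called lower. The transcription factor gene Nfatc1 (-2.07, adjusted p = 1.64e-11) and the IP3 receptor gene Itpr3 (-1.69, adjusted p = 2.54e-10) fell most in Mb1Cre cells, and Ppp3r1, which encodes a calcineurin subunit, rose from 48.8 and 51.6 to 73.0 and 74.5 FPKM (0.55, adjusted p = 1.17e-05). In the diacylglycerol branch, 8 of 10 genes were called lower in Mb1Cre and 7 in Mct1f/fMb1Cre cells, against the same shares of all genes. The diacylglycerol kinase gene Dgka (-2.39, adjusted p = 3.13e-11) and the protein kinase C gene Prkcb (-2.31, adjusted p = 1.01e-11) fell most in Mb1Cre cells.

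Of the inhibitors of the receptor, 13 of 17 were called lower in each genotype, against 33% and 33.2% of all genes tested. Dok3, which encodes an adaptor that restrains the pathway, was at 255 to 262 FPKM on day 0 and 19.2 to 21.6 FPKM on day 3 (-3.59 in Mb1Cre cells, adjusted p = 2.48e-12), and the inhibitory receptor gene Pirb at 74.2 to 79.2 and 2.19 to 3.99 FPKM (-4.45, adjusted p = 7.18e-12). Among 19 tested adaptors and exchange factors, 8 were called lower and 1 higher in Mb1Cre cells, against 33% and 24.8% of all genes tested. Bank1, a B cell scaffold gene (-2.36, adjusted p = 2.01e-11), and Sh3kbp1 (-1.64, adjusted p = 2.64e-10) fell most.

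Rasgrp3, Lcp2 and Shb were among the further genes called between the genotypes on day 3. Rasgrp3, an exchange factor gene of the diacylglycerol branch, was at 21.6, 21.8 and 21.2 FPKM in Mct1f/fMb1Cre and at 14.6 and 15.2 FPKM in Mb1Cre libraries (0.50, adjusted p = 0.002). Lcp2, which encodes SLP-76, the adaptor related to Blnk, was at 11.4, 9.70 and 10.1 against 18.0 and 18.8 FPKM (-0.77, adjusted p = 0.000126), and the adaptor gene Shb at 0.80, 1.17 and 0.87 against 2.01 and 1.87 FPKM (-0.60, adjusted p = 0.00327). For none of the 3 did the genotypes overlap. The 3 were named because they were called, and the share of all genes tested that separate between the genotypes was not counted. Shb was near the filter of 1 FPKM, and with a pseudocount of 5 its difference was -0.22, under the limit on size. Rasgrp3 lay close to the limit on size and was under it without Mb1Cre library 1 of day 3 (0.47) and without Mct1f/fMb1Cre library 1 or 2 of day 3 (0.499 and 0.49).

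**Figure D5:**
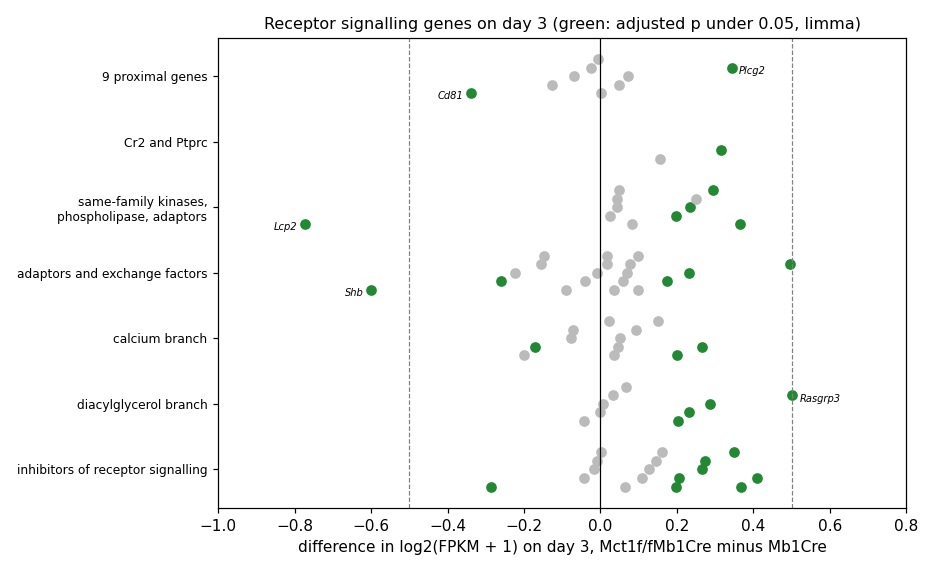
Difference in log2(FPKM + 1) between Mct1f/fMb1Cre and Mb1Cre cells on day 3 for the 9 genes and for further pathway genes by list, green where the adjusted p was under 0.05, with dashed lines at the limit of 0.5 in size and names for genes past it and for Plcg2 and Cd81. Among the 9 genes 1 green point lies on each side of 0, and among the named further genes Rasgrp3 lies at 0.50, Shb at -0.60 and Lcp2 at -0.77.

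For each of the 9 genes, the 2 genes with the most similar pattern were those with the smallest root mean square difference of centred log2(FPKM + 1) over the 9 libraries. For Plcg2 these were Csk (0.041), which encodes the kinase that restrains Src family kinases, and Zbtb49 (0.042). They were Lsp1 and C2 for Cd79a (0.045 and 0.057), Cic and Itprip for Cd79b (0.051 and 0.056), Kcnk5 and Sik3 for Cd81 (0.053 and 0.054), and Pgap1 and Phf1 for Blk (0.072 and 0.082). For Lyn they were Tlr11 and Cyp39a1 (0.046 and 0.047), for Syk Cblb and Rapgef4 (0.045 and 0.053), for Btk Aff1 and Phf21a (0.026 and 0.028), and for Blnk Myo9b and Trim26 (0.026 and 0.029). Csk and Cblb, an E3 ligase gene, are also in the list of inhibitors. The 1 added to each FPKM shrinks the differences of genes at low levels. C2 was at 2.25 to 2.72 FPKM on day 0 and 0.10 to 0.19 FPKM on day 3. Tlr11 was at 3.38 to 4.07 FPKM and 0 to 0.02 FPKM. Their fold changes in FPKM were therefore larger than those of Cd79a and Lyn.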

How the data were processed

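The authors deposited FPKM with 1 row per gene for 17596 genes, rounded to 2 decimals, in which the libraries were normalized to transcript length and mapped fragments. The submitters' processing notes name Bowtie2 and GRCm38 (mm10). The counter and the annotation were not given in the sources used here, read totals were not analysed here, and precision rests on 2 or 3 libraries a group. From these values, log2(FPKM + 1) was fitted in limma 3.58.1 (R 4.3.3) with a mean for each of the 4 groups, trended empirical Bayes and Benjamini-Hochberg adjustment over the 10823 genes that averaged 1 FPKM or more. The procedure was tested on simulated data with independent noise in each library. That test does not bear on libraries that share a mouse, on Y-linked transcripts or on scaling. Replicate numbers were not used to pair the libraries in the main fit. Deviations of same-numbered libraries from their group means correlated at -0.12 to 0.087. In a group of 2 libraries the deviations mirror each other, so these values do not show whether same-numbered libraries shared a mouse, litter or day. No 2 libraries were copies of each other, with at most 3.43% of values equal. Promoters came from the RefSeq table of GRCm38.p6 and gene positions from GENCODE on GRCm38. Figures were drawn with matplotlib 3.10.9 in Python 3.11.15.

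The 9 genes and the pathway and marker lists were chosen with earlier results of these data known. Genes named from the lists were the 2 with the largest increase and the 2 with the largest decrease in Mb1Cre cells among those called in both genotypes, and those called between the genotypes on day 3. Alternatives changed the pseudocount, the filter, the scaling, the fit, the limit on size and the libraries used. Irf4 and Jchain were named after their values were seen. Some genes of the lists enter the counts but are not reported here by name.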

Additional observations from a re-analysis of the deposited data

Results flagged for a closer look

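The difference between the genotypes changed from day 0 to day 3 for these genes by the interaction term in limma, at an adjusted p under 0.05. Among the 9 receptor signalling genes it was 0.45 for Plcg2 (adjusted p = 0.00115) and -0.33 for Cd81 (adjusted p = 0.0226), and for the targeted gene Slc16a1 it was -1.06 (adjusted p = 0.000424). Among the further pathway genes it was 0.52 for Bank1 (adjusted p = 0.00309), 0.49 for Rasgrp3 (adjusted p = 0.0282), 0.37 for Prkcb (adjusted p = 0.00806) and 0.36 for Nfatc1 (adjusted p = 0.00819). It was -0.89 for Lcp2 (adjusted p = 0.00163) and -0.62 for Shb (adjusted p = 0.0324). Among markers of other cells it was 0.57 for Lyz2 (adjusted p = 0.0466), 0.51 for Adgre1 (adjusted p = 0.0289), 0.44 for Ncr1 (adjusted p = 0.0443), -0.91 for Hba-a1 (adjusted p = 0.0041), -1.44 for Jchain (adjusted p = 0.00246) and -0.45 for Irf4 (adjusted p = 0.00279). Of the 9 fits that left out 1 library, the adjusted p was above 0.05 in 6 each for Shb, Rasgrp3, Lyz2 and Adgre1, reaching 0.121, 0.103, 0.155 and 0.109, in 9 for Ncr1, reaching 0.148, and in 3 for Cd81, reaching 0.0969. It was under 0.05 in all 9 for the other genes listed here. Jchain was higher in Mct1f/fMb1Cre cells on day 0, at 160 and 117 against 62.3 and 77.9 FPKM (0.97, adjusted p = 0.0193). Hba-a1 was also higher on day 0, at 82.2 and 66.4 against 49.5 and 44.8 FPKM (0.64, adjusted p = 0.0293). On day 3 Hba-a1 was at 0 to 0.3 FPKM. Neither day 0 difference passed with only the groups compared in the fit (adjusted p = 0.326 for each). The gap of the farthest library to its group was not tested, since no group held more than 3 libraries. Mct1f/fMb1Cre library 1 of day 0 differed from the other library of its group in Ddx3y (31.1 against 0.20 FPKM) and S100a9 (514 against 187 FPKM), and the fits without it are among the alternatives. The Mb1Cre libraries of day 0 were at 0.24 and 0.02 FPKM of Ddx3y. The part of this imbalance in the interactions listed here was not tested.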

How the results depend on the processing

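The count of the 9 genes called lower on day 3 was 5 to 8 in all alternatives with a limit on size, against 7 as reported in both genotypes, and 8 and 9 without a limit. For the genotype difference on day 3 and for the interaction, the counts of 0 higher and 0 lower became 1 higher and 1 lower without a limit on size, and were 0 in the other alternatives. Of the single genes' values, 149 of 153 kept their side of the threshold for activation in Mb1Cre cells, 146 of 153 in Mct1f/fMb1Cre cells, 151 of 153 for the genotypes on day 3, 144 of 144 on day 0 and 178 of 180 for the interaction, and no called value changed sign. Of the values of the other named genes, 2963 of 3102 kept their side of the threshold and 0 reversed. The scaling of the libraries moved the median of all genes in Mb1Cre cells from -0.12 to -0.31 with equal totals, 0.065 with median-of-ratios scaling and 0.0084 with quantile normalization. The share of higher genes among those called moved from 42.9% to 32.0%, 55.4% and 50.8%, and in Mct1f/fMb1Cre cells from 41.4% to 31.7%, 54.9% and 51.4%. Blk, with -3.44 to -3.01, and Syk, with -2.91 to -2.50, kept their decreases in Mb1Cre cells under all alternatives. With the replicate number as a block, 7 of the 9 genes were called lower on day 3 in each genotype and 0 between the genotypes, the interaction of Cd81 had an adjusted p of 0.0534, and no other call on the 9 genes changed. Among the other named genes, the block lost the interactions of Shb, Adgre1 and Lyz2 (adjusted p = 0.11, 0.0864 and 0.111). With the numbers of the Mb1Cre libraries of day 3 exchanged in the block, an alternative chosen after seeing the data, 7 were called lower in Mb1Cre cells, and 2687 of all genes were called higher and 3570 lower against 2687 and 3574 with the numbers as labelled. Depth limits could not be set from FPKM.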
